A study of Mus musculus with 118 samples.

Results

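The RNA of single SOM+ interneurons, aspirated through a patch pipette, was examined for 9 genes that mark astrocytes in the cortex: *Clu*, *Apoe*, *Glul*, *Aldoc*, *Slc1a2*, *Slc1a3*, *Gja1*, *Aqp4* and *Gfap*. They were chosen by name, and each is 1 of the 23998 gene symbols of the count table. Patch-seq, which joins whole-cell recording to sequencing of the recorded cell, had been applied to labeled neurons of L4 and L5 in primary visual cortex (V1) and primary somatosensory cortex (S1) of SOM-Cre/Ai9 mice, to compare the SOM+ neurons of the 2 areas. All groups share this genotype, in which Cre under the somatostatin gene switches on tdTomato for good, so a cell that expressed somatostatin earlier in life or a few off-target cells can also be labeled. The cells kept here were 42 of 44 from L4 of V1, 34 of 39 from L4 of S1, 17 of 19 from L5 of V1 and all 16 from L5 of S1, and values for the 4 groups are given in this order throughout (V1 L4 first, then S1 L4, then V1 L5, with S1 L5 last). A kept cell had at least 1500 genes with a count, no more *Slc17a7* than *Gad1* and *Gad2* counts together, and at least 1 *Sst* count.

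Since the animal behind each cell is not labelled, every group counts as a single sample here, and no test over cells was made. Kept cells held between 97904 and 3295232 counts, with a median of 1111830. The median cell had counts for 6 of 6 genes of a SOM interneuron list (*Sst*, *Gad1*, *Gad2*, *Slc32a1*, *Lhx6*, *Sox6*). The lowest cell had counts for 2 of them. *Sst* was read in every kept cell because the selection required it, and *Gad1* and *Gad2* were also used in the selection. Of this list, only *Slc32a1*, *Lhx6* and *Sox6* played no part in it. An excitatory neuron list summed to 12.1 CPM (counts scaled to 1e6 per cell or pool) over all kept cells. That list includes *Slc17a7*, which the selection also used. An endothelial list summed to 2.34 CPM over the same cells. The 9 dates in the labels, numbered here in calendar order, fall into 2 series, with 70 cells on dates 1 to 6 and 39 on dates 7 to 9. All L5 cells belong to the first series.

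Astrocytes are the glia that wrap synapses and blood vessels. They clear glutamate from the synaptic cleft, turn it into glutamine that neurons take back, buffer water and ions, and join one another through gap junctions. Of the 9 genes, *Slc1a2* and *Slc1a3* encode the glutamate transporters GLT-1 and GLAST, *Glul* encodes glutamine synthetase, *Aqp4* a water channel, *Gja1* connexin 43, *Gfap* an intermediate filament, *Aldoc* the brain form of the glycolytic enzyme aldolase, and *Apoe* and *Clu* secreted lipid carriers. *Clu* is known to be made by some neurons as well, and *Apoe* by microglia.

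In the GRCm38 genome (GENCODE annotation) the genes lie on 8 chromosomes. *Slc1a2* spans chr2:102658659-102790784 (+), *Slc1a3* chr15:8634124-8710764 (-), *Glul* chr1:153899944-153909723 (+), *Aldoc* chr11:78322968-78327781 (+), *Gfap* chr11:102887336-102900912 (-), *Gja1* chr10:56377330-56402513 (+), *Apoe* chr7:19696109-19699188 (-), *Clu* chr14:65968483-65981547 (+) and *Aqp4* chr18:15389496-15410982 (-). All 9 are protein-coding, and a count of any of them is a read assigned to the gene as a whole. *Aqp4*, *Slc1a2*, *Slc1a3*, *Gfap* and *Glul* overlap another annotated gene, and *Aldoc*, *Gja1*, *Apoe* and *Clu* overlap none. Overlap was judged on whole gene spans, introns included, and of the overlapping genes only *Mir8114*, at *Glul*, is in the count table. The library kit does not mark strand, so reads from a stretch that 2 genes share cannot be told apart by strand.

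Astrocyte genes were read in every kept cell, but the 9 genes differed widely in how often. *Clu* had a count in all kept cells but 6 (94.5%, 95% Clopper-Pearson interval 88.4 to 97.95%), *Apoe* in 92 (84.4%, 76.2 to 90.6%) and *Glul* in 91 (83.5%, 75.2 to 89.9%). *Aldoc* followed with 71 cells (65.1%, 55.4 to 74.0%) and *Slc1a2* with 66 (60.6%, 50.7 to 69.8%). The other 4 were rare: *Slc1a3* in 16 cells (14.7%, 8.63 to 22.7%), *Gja1* in 15 (13.8%, 7.91 to 21.7%), *Aqp4* in 7 (6.42%, 2.62 to 12.8%) and *Gfap* in 5 (4.59%, 1.51 to 10.4%). These intervals, and those for shares that follow, treat cells as independent draws, although cells share dates, and animals that the labels do not name. The Poisson intervals given below treat reads as independent. They cover at most counting error, since reads made by PCR, with no molecular identifiers, do not count molecules. Neither kind covers the spread between animals. When each cell was thinned to 250000 counts, which left out 3 shallower cells, *Clu* was read in 95.3% of the cells, *Apoe* in 89 cells, *Glul* in 83, *Aldoc* in 67, *Slc1a2* in 58, *Slc1a3* in 16, *Gja1* in 9, *Aqp4* in 6 and *Gfap* in 5.

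Levels between genes were compared per length, as the mean RPKM over the kept cells. *Clu* had a mean of 311 RPKM, *Apoe* 268 RPKM and *Aldoc* 171.1 RPKM, which ranked 297 among 17614 genes with a value. *Glul* came next at 30.97 RPKM and *Slc1a2* at 15.8 RPKM, while *Slc1a3* (9.23), *Gja1* (4.37), *Gfap* (2.45) and *Aqp4* (1.26 RPKM) closed the order. Part of this order rested on V1 L4 cell 22, without which *Slc1a3* was at 5.14 RPKM, *Gja1* at 1.41, *Gfap* at 2.47 and *Aqp4* at 0.82 RPKM, so that *Gfap* stood above *Gja1*. Neighbors in this order changed places between groups. *Apoe* stood above *Clu* in V1 L4 (393 and 349 RPKM), *Slc1a3* above *Slc1a2* in S1 L5 (14.1 and 8.02 RPKM), and *Gfap* above *Gja1* in S1 L5 (4.47 and 0.031 RPKM). In V1 L4, cell 22 held 41.02% of the CPM summed over cells for *Apoe* and 12.14% for *Clu*. The medians over cells there went the other way, at 81.5 RPKM for *Apoe* and 277.2 RPKM for *Clu*. *Clu* was above *Aldoc*, and *Glul* above *Slc1a2*, in all 4 groups.

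Genes that neurons are known to use for the same tasks gave a scale. *Aldoa*, the widespread aldolase, was at 1224 RPKM with a count in all kept cells. *Slc1a1*, the neuronal glutamate transporter EAAC1, was at 63.8 RPKM with a count in 93.6% of cells, above *Slc1a2* and *Slc1a3*. *Gjd2*, the neuronal connexin 36, was at 1.65 RPKM in 18 cells. *Gja1* was above it with all cells (4.37 RPKM) and below it without V1 L4 cell 22 (1.41 RPKM).

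**Figure D1:**
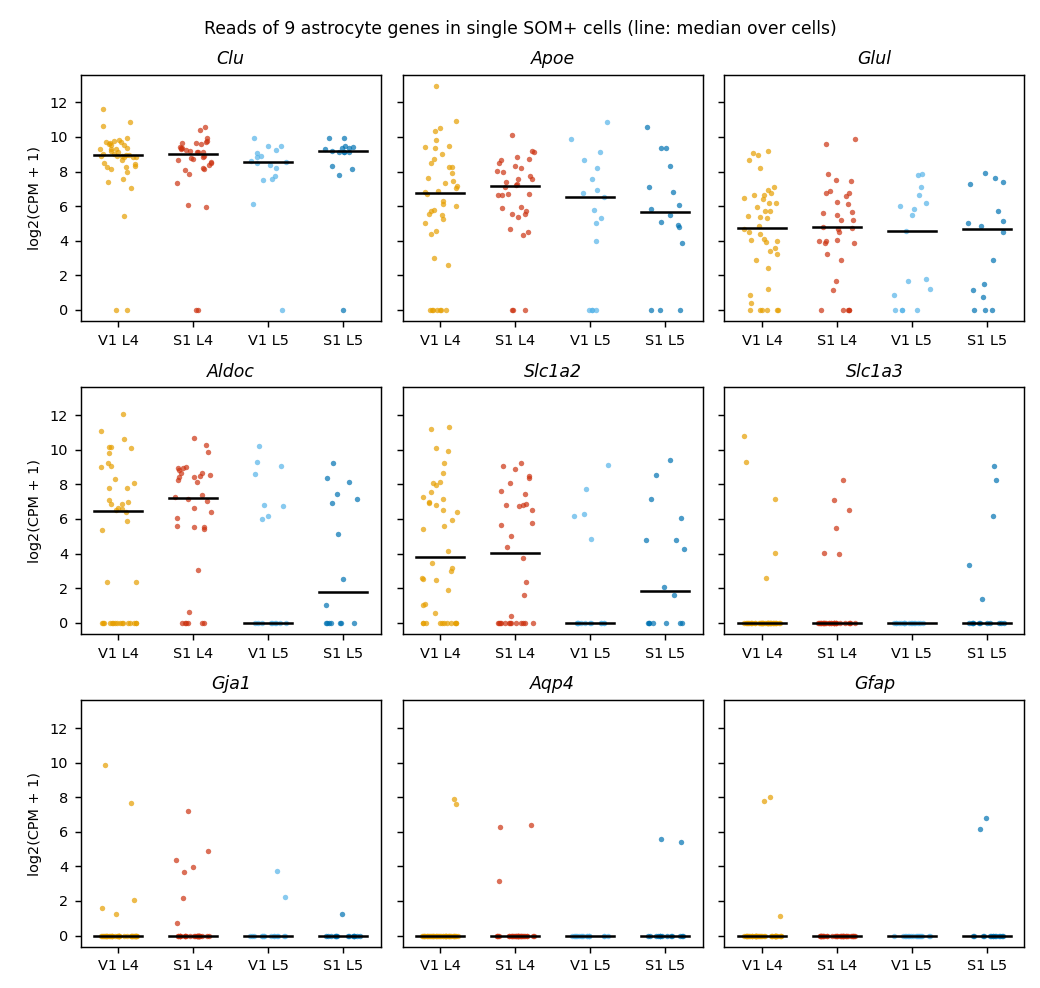
Each point is 1 kept cell, placed by group on the x axis (V1 L4, 42 cells; S1 L4, 34; V1 L5, 17; S1 L5, 16) and by the log2(CPM + 1) of the gene on the y axis, and the black line is the median over cells. *Clu* forms a band near its medians of 377 to 573 CPM with 6 cells at 0, while *Slc1a3*, *Gja1*, *Aqp4* and *Gfap* have medians of 0 and a few cells far above.

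*Clu*, the secreted chaperone and lipid carrier, had the smallest SD over cells of the 5 widely read genes (2.25 in log2(CPM + 1), beside 2.81 for *Glul*, 3.17 for *Apoe*, 3.63 for *Slc1a2* and 4.02 for *Aldoc*). Its lowest cell was at 0 in each group, its medians were 497, 514, 377 and 573 CPM, and its highest cells were at 3123, 1533, 993 and 996 CPM. All 4 groups overlapped from 0 to 993 CPM. *Clu* made up 36.9%, 45.2%, 48.7% and 63.8% of the counts of the 9 genes in the 4 groups, with the highest share in S1 L5. Of the 6 cells without a *Clu* count, 4 had between 1031770 and 1518058 counts in all, and 5 had *Apoe* at 156.6 CPM or more.

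*Apoe*, the main lipid carrier of the brain, spread much more widely. Its lowest cells were again at 0, its medians were 107.5, 143.8, 91.8 and 49.6 CPM, and its highest cells were at 7995, 1096, 1865 and 1525 CPM. The pooled level, all *Apoe* counts of a group over all its counts, was highest in V1 L4 (342 CPM, exact Poisson interval 337 to 347). Cell 22 of that group alone held 39.9% of those counts. The other groups were at 185, 199.8 and 129.5 CPM, and their top cells held 19.42%, 39.98% and 43.77% of the counts. Without the cell with the most *Apoe* counts in each group, the pooled levels were 209, 154.3, 125.26 and 75.66 CPM. V1 L4 thus stayed highest.

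For *Aldoc* many cells had none and the others spread up to 4326 CPM. In V1 L4 the median was 86.6 CPM and the highest cell 4326 CPM, with 26 of 42 cells read. In S1 L4 28 of 34 cells were read, with a median of 147.5 CPM and a highest cell of 1657 CPM. In V1 L5 8 of 17 cells and in S1 L5 9 of 16 cells were read, with medians of 0 and 2.94 CPM and highest cells of 1210 and 606 CPM. Among the cells with a count the medians were 221, 296, 249 and 141.5 CPM.

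The glutamate cycle genes *Slc1a2* and *Glul* were read in many cells at low levels. *Slc1a2* had medians of 13.4, 16.03, 0 and 2.56 CPM, with lowest cells at 0 and highest cells of 2512, 607, 548 and 684 CPM. *Slc1a2* was read in 31 of 42, 21 of 34, 5 of 17 and 9 of 16 cells, the lowest share being that of V1 L5 (29.4%, 10.3 to 55.96%) and the highest that of V1 L4 (73.8%, 58.0 to 86.1%). *Glul* had nearly the same median in every group (26.1, 26.3, 22.8 and 25.1 CPM), with lowest cells at 0 and highest cells at 575, 951, 228 and 241 CPM. *Slc1a3*, at 0 in the median cell of each group and at most 1777, 308, 0 and 540 CPM, was read in 5 of 42, 6 of 34 and 5 of 16 cells of the groups other than V1 L5. In V1 L5 it was read in 0 of 17 cells, which allows a share of up to 17.6%.

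*Gja1*, *Aqp4* and *Gfap*, the connexin, the water channel and the filament gene, rested on few cells. *Gja1* had 1030 counts in V1 L4, of which 83.2% came from cell 22 (945 CPM), and its pooled level of 19.4 CPM was 3.31 CPM without that cell. *Gja1* had 213 counts in 7 cells of S1 L4, 16 counts in 2 cells of V1 L5 and 1 count in 1 cell of S1 L5. *Aqp4* was read in 2 cells of V1 L4 (235 and 194 CPM), 3 of S1 L4 (83.0, 77.9 and 8.09 CPM) and 2 of S1 L5 (46.7 and 40.9 CPM), and in 0 of 17 cells of V1 L5. *Gfap* was read in V1 L4 cells 26, 37 and 2 (263, 224 and 1.17 CPM) and in S1 L5 cells 14 and 3 (110 and 71.0 CPM). It was read in 0 of 34 cells of S1 L4, which allows a share of up to 8.82%, and in 0 of 17 of V1 L5.

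Summed over the 9 genes, the pooled level was 1523 CPM (1513 to 1534) for V1 L4 and 1132 CPM (1122 to 1141) for S1 L4. It was 814 CPM (801 to 826) for V1 L5 and 962 CPM (948 to 975) for S1 L5. The medians over cells lay closer together, at 846, 991, 669 and 948 CPM, and the ranges of the groups overlapped. Without the highest cell of each group the pooled levels were 1179, 1060, 681 and 842 CPM.

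A cell had counts for 1 to 8 of the 9 genes, with a median of 4. No cell had none and no cell had all. The mean number was 4.36 ± 1.53 (SD over 42 cells) for V1 L4 and 4.62 ± 1.35 (34 cells) for S1 L4, and 3.35 ± 1.498 (17 cells) for V1 L5 and 4.31 ± 1.58 (16 cells) for S1 L5. The means differed by less than the SD between cells. At 250000 counts per cell they were 4.07, 4.44, 3.40 and 4.07. The number of genes read was almost unrelated to the depth of a cell (r = 0.030 with the log10 of the total counts, r = 0.11 with the number of detected genes, over all kept cells).

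**Figure D2:**
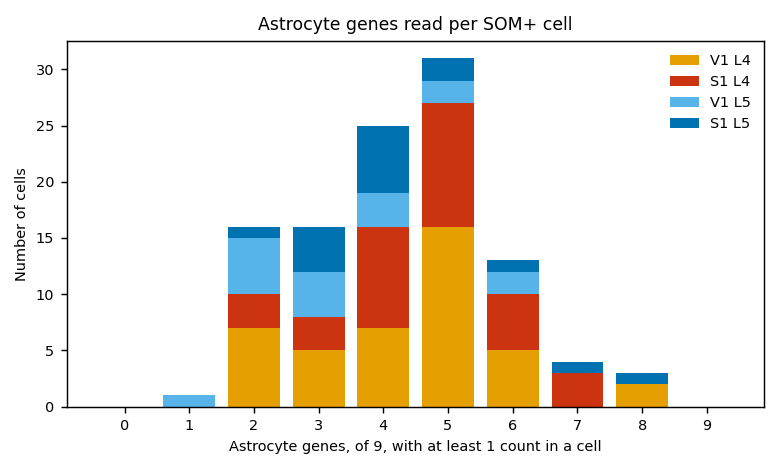
The x axis is the number of the 9 astrocyte genes with at least 1 count in a cell and the y axis the number of kept cells, with the bars stacked by group. The most common number is 5, in 31 cells, followed by 4 in 25 cells, and 7 cells have 7 or 8.

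The 7 cells with 7 or 8 of the genes were V1 L4 cells 22 and 3, S1 L4 cells 32, 30 and 7, and S1 L5 cells 14 and 9, from 6 dates. V1 L4 cell 22 stood furthest apart: its 9 genes summed to 21330 CPM, with *Apoe* at 7995, *Aldoc* at 4326, *Clu* at 3123, *Slc1a2* at 2389, *Slc1a3* at 1777, *Gja1* at 945, *Glul* at 540 and *Aqp4* at 235 CPM, and with *Gfap* at 0. The same cell had counts for 20 of 20 other astrocyte genes, for 7 of 10 microglia genes (2528 CPM) and for 6 of 6 SOM interneuron genes (1642 CPM). V1 L4 cell 3 had the 9 genes at 5793 CPM and microglia genes at 3114 CPM. S1 L4 cell 32 (4893 CPM) and S1 L5 cell 14 (4044 CPM) carried oligodendrocyte genes at 5914 and 5612 CPM. S1 L5 cell 9 was the lowest of the 7, with 974 CPM, near the median cell of its group (948 CPM).

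The cells with a rare gene often held common ones too, which most cells did. All 7 cells with *Aqp4* had *Slc1a2*, *Glul* and *Apoe*, which were read in 60.6%, 83.5% and 84.4% of all cells, and 5 of them had *Gja1*. All 15 cells with *Gja1* had *Glul*, *Apoe* and *Clu*, and 14 had *Aldoc*, which was read in 65.1% of all cells. Of the 16 cells with *Slc1a3*, 15 had *Apoe* and 13 had *Slc1a2*, but their shares with *Glul* (81.2%) and *Aldoc* (68.8%) were close to those of all cells. All 5 cells with *Gfap* had *Glul* and *Apoe* and 60.0% of them had *Slc1a2*, but *Gfap* and *Aqp4* were never read in the same cell.

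Over all kept cells, 4 of the genes varied together: *Aldoc*, *Apoe*, *Slc1a2* and *Glul*, a set named after their values were seen. The 6 pairs among them had Pearson r of 0.37 to 0.50 in log2(CPM + 1), with a median of 0.46. *Gja1*, although read in 15 cells, had similar r with each of the 4 (0.36 to 0.39). *Aldoc* and *Apoe* had the highest of these (r = 0.50, Spearman's rho 0.58), and *Slc1a2* and *Glul* the lowest (r = 0.37, rho 0.36). *Gja1* and *Aqp4*, both at 0 in most cells, had r = 0.55 (rho 0.46). *Clu* followed none of the others by Pearson r, from -0.15 (*Gfap*) to 0.18 (*Gja1*) with a median of 0.0035. Its rho was low but above 0 with each of the others, from 0.006 (*Glul*) to 0.20 (*Aldoc*), so the sign depends on the measure for some pairs. *Gfap* was also apart, with r from -0.15 to 0.20. These correlations are descriptions, since cells share dates, and animals that the labels do not name.

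After the mean of each group and date was taken off every cell, the 6 pairs had r of 0.27 to 0.44 (median 0.39) and *Clu* had a median r of -0.009 with the other 8 genes. Without V1 L4 cell 22 the medians were 0.44 and -0.042, and at 250000 counts per cell 0.45 and 0.022. The median of the 6 pairs was 0.47, 0.37, 0.53 and 0.39 in the 4 groups, and 1 pair in S1 L5 was as low as -0.17. The median of the 6 pairs was 0.38 in the first date series and 0.59 in the second. For *Clu* the medians with the other genes were 0.19, 0.05, -0.30 and -0.08, with single pairs as low as -0.44 in V1 L4 and -0.65 in S1 L5. These medians cover 8, 7, 5 and 8 pairs, since a gene at 0 in every cell of a group has no r.

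**Figure D3:**
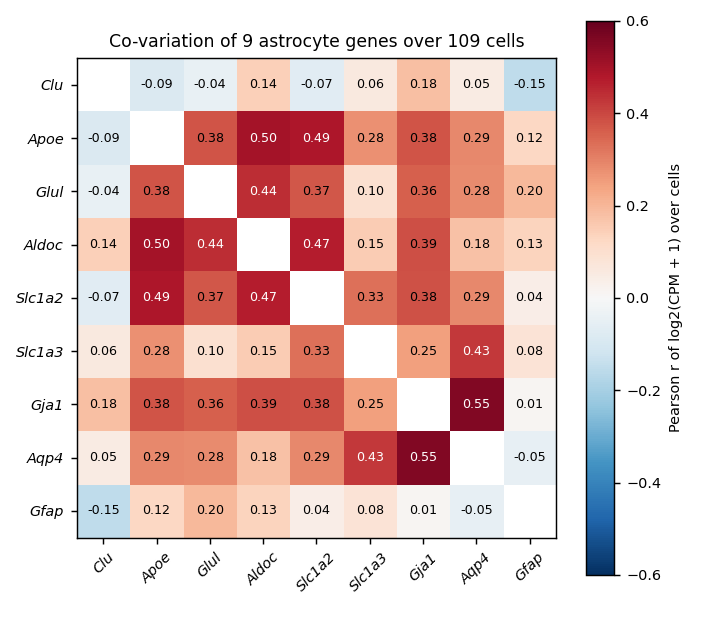
Each square is the Pearson r of log2(CPM + 1) between 2 of the 9 genes over all kept cells, in blue below 0 and red above, with the diagonal left blank. *Apoe*, *Glul*, *Aldoc* and *Slc1a2* form a block of r from 0.37 to 0.50, and the row of *Clu* stays between -0.15 and 0.18.

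A list of 20 other astrocyte genes was read in the same cells. The median cell had counts for 6 of the 20, with a range of 1 to 20. *Sparcl1*, a secreted matrix protein, was read in all kept cells at a pooled 1555 CPM, *Ndrg2* in 83 cells (238 CPM) and *Atp1b2*, a sodium pump subunit, in 77 (127.5 CPM). *Aldh1l1*, a folate enzyme widely used to mark astrocytes, was read in 21 cells (18.9 CPM), *Gjb6*, connexin 30, in 9 and *Slc7a10* in 10. The number of the 9 genes read in a cell was higher where more of the 20 were read (r = 0.67, rho 0.64; r = 0.68 at 250000 counts). Within the 4 groups r was 0.75, 0.57, 0.64 and 0.69, and 0.61 once the means of group and date were taken off.

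**Figure D4:**
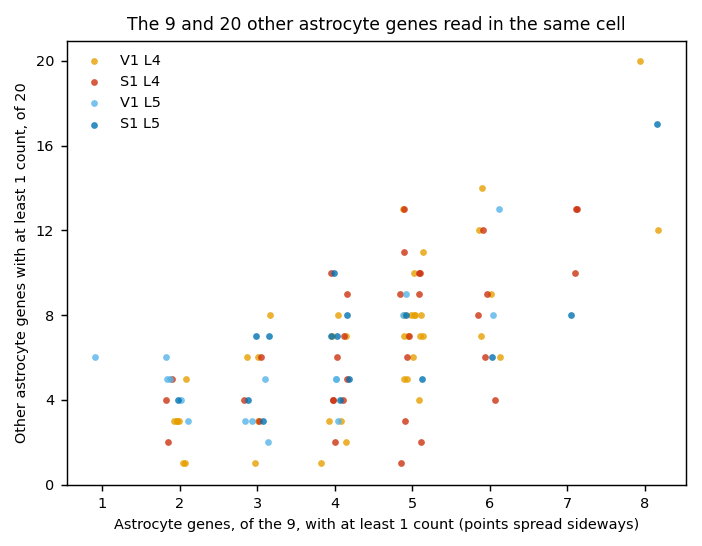
Each point is 1 kept cell, colored by group. The x axis is the number of the 9 genes with a count and the y axis the number of 20 other astrocyte genes with a count, and V1 L4 cell 22 is the point at 8 and 20.

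The number of the 9 genes read also moved with markers of other non-neuronal cells. Over all kept cells its r was 0.50 with the number of 10 microglia genes read, 0.39 with 8 oligodendrocyte genes, 0.21 with 4 oligodendrocyte precursor genes and 0.059 with 5 endothelial genes. It was 0.28 with 5 excitatory neuron genes, and with the 6 SOM interneuron genes 0.16, or -0.053 at 250000 counts. For microglia genes r was 0.38 with the means of group and date taken off, 0.58 in the first date series and 0.25 in the second. All 10 microglia genes had a count in some kept cell, the least often *Tmem119*, in 6 cells. They summed to 433, 354, 875 and 259 CPM in the 4 groups when pooled. The medians over cells were in another order, at 182, 270, 98.8 and 96.98 CPM, and the pooled level of V1 L5 included cells 5, 3 and 13 at 5243, 5222 and 3320 CPM. The oligodendrocyte genes summed to 267, 1119, 239 and 733 CPM, so the sum was higher in both layers of S1. Most of it was *Mbp*, at 220.04, 967.24, 170.07 and 601.55 CPM. Without S1 L4 cell 34, which held 19.94% of that group's *Mbp* counts, *Mbp* was at 790.65 CPM there. In L4 only *Cnp* was not higher in S1 (27.02 CPM in V1, 26.55 in S1). In L5 only *Mag* was not (9.28 CPM in V1, 2.99 in S1). Whether any of these reads came from cells next to the recorded one was not tested.

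Gene by gene, *Aldoc* and *Glul* moved with the summed level of the microglia list (r = 0.56 and 0.50, rho 0.59 and 0.46), as did *Apoe* (r = 0.43, rho 0.55), and *Clu* hardly (0.11, rho 0.17). With the summed level of the 20 other astrocyte genes, r was lower for *Aldoc* (0.41), *Glul* (0.32) and *Apoe* (0.23), and higher for *Clu* (0.16). *Sparcl1* made up 1555 of the pooled 2292 CPM of that sum. With the summed oligodendrocyte list r was 0.31, 0.36, 0.27 and -0.15 for these genes. Against the summed SOM interneuron list, r was -0.31 for *Apoe*, -0.20 for *Slc1a2*, -0.19 for *Aldoc*, -0.04 for *Glul* and -0.01 for *Clu*.

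The genes most like each member were ranked by Pearson r over all kept cells among 9992 or 9993 genes that reach 32 counts in 10 or more of them. *Apoe* was closest to *Cst3*, the secreted protease inhibitor cystatin C (r = 0.64, rho 0.67), then to *Aldoc* and *Slc1a2*. *Slc1a2* was closest to *Apoe* (0.49), *S100a1* (0.49) and *Aldoc* (0.47). *Glul* was closest to *Acsbg1*, a fatty acid activating enzyme of the astrocyte list (0.45), *Aldoc* (0.44) and the metallothionein *Mt1* (0.44). *Aldoc* was closest to the glutathione transferase *Gstm1* (0.52), the complement gene *C1qb* (0.52) and the astrocyte receptor *Gpr37l1* (0.51). *Gja1* was closest to *Gpr37l1* (0.61), *Ezr* (0.54) and *Fabp7* (0.50), and *Slc1a3* to *Smpdl3a* (0.38), *Fgf1* (0.35) and *Stard3* (0.35), although *Smpdl3a* was read together with *Slc1a3* in only 4 cells and had a rho of 0.22.

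For *Clu* the closest genes were *Tmem130* (r = 0.56), *Cct6a* (0.50), a chaperonin subunit, and *Arl4a* (0.44), none of them in the astrocyte list. Spearman's rho for these 3 was 0.27, 0.11 and 0.04, and 0 of the 3 were among the 3 highest by rho, so the order for *Clu* depends on the measure. The 3 genes were the same by both measures for *Apoe* and *Slc1a2*, and 0 of 3 were the same for *Aldoc*.

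The level of the genes also changed from date to date. *Apoe* had a pooled 24.2 CPM on date 4 and 62.7 on date 2, beside 104.1 to 827 CPM on the other 7 dates. *Aldoc* was at 34.9 CPM on date 2 and 71.5 on date 4, beside 229 to 542 CPM, and *Glul* at 20.9 and 17.7 CPM, beside 48.0 to 183 CPM. *Slc1a2* was at 29.6 and 23.1 CPM on these dates, but also low on dates 3 and 9 (44.8 and 40.3 CPM). *Clu* did not share this dip: it was at 533 and 529 CPM on dates 2 and 4, within its range of 412 to 1072 CPM.

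With the groups pooled, date 1 had the highest level of *Apoe*, *Aldoc*, *Slc1a2*, *Glul*, *Slc1a3*, *Aqp4* and *Clu*, from 3 cells, all of V1 L4. Within V1 L4 alone, *Apoe*, *Aldoc*, *Slc1a3* and *Glul* were higher on date 5 than on date 1, and *Slc1a2*, *Aqp4* and *Clu* lower. The 9 genes there summed to 3666 CPM on date 1 (3 cells), 660 on date 2 (11 cells), 1236 on date 7 (12 cells) and 1229 on date 8 (9 cells). The other V1 L4 dates were at 857 CPM (date 3, 2 cells), 644 (date 4, 1 cell), 5257 (date 5, 3 cells) and 3713 (date 6, 1 cell). Cell 22 was among those of date 5. Within S1 L4 the 9 genes summed to 722 CPM on date 2 (4 cells), 1497 on date 3 (6 cells), 1074 on date 7 (9 cells) and 970 on date 9 (7 cells). The other S1 L4 dates were at 867 CPM (date 4, 3 cells), 918 (date 5, 2 cells), 2056 (date 6, 1 cell) and 2722 (date 8, 2 cells). The low level on date 2 was thus found in both areas. Whether the dates also differ in animal or in handling cannot be told apart.

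**Figure D5:**
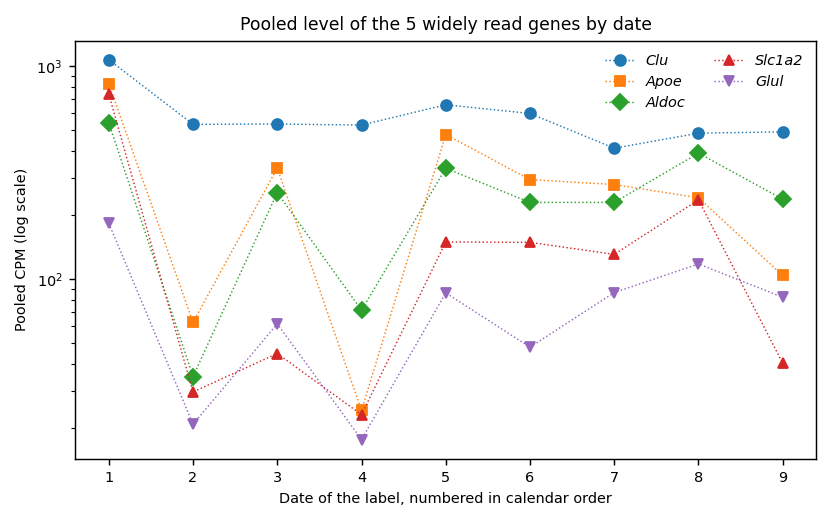
The x axis is the date in the labels, numbered in calendar order, and the y axis the pooled level in CPM on a log scale over all kept cells of that date. *Apoe*, *Aldoc*, *Slc1a2* and *Glul* are low on dates 2 and 4, whereas *Clu* stays between 412 and 1072 CPM, and the lines only join points of 1 gene.

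Between the areas in L4, the mean log2(CPM + 1) of the summed 9 genes was 9.97 in S1 and 9.94 in V1, a difference of 0.04. Within the 5 dates that had at least 2 cells of each area, the difference ranged from -1.18 to 1.60, with an SD of 1.05. *Aldoc* was the only one of the 9 genes past 2-fold: its mean was 6.11 in S1 and 4.84 in V1, a difference of 1.28, above 0 on 5 of 5 dates (0.36 to 4.59, mean 1.83, SD 1.79). This difference fell below 2-fold with log2(CPM + 10) (0.66), between medians over cells (0.76) and without date 2 (0.64), and the pooled level was higher in V1 (289 CPM) than in S1 (243 CPM). The cells of both areas overlapped, since each has cells at 0. Of the 5 genes that passed the count filter in this comparison, 1 was higher by 2-fold or more and 0 lower, beside 8.12% and 7.66% of the 9201 genes in the comparison. *Slc1a2* went the other way, with a mean 0.54 lower in S1 and an SD over dates of 2.03. None of the 9 genes had a pooled difference larger than its SD over dates.

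In L5 the summed genes had means of 9.82 in S1 and 9.49 in V1, a difference of 0.32 with an SD of 0.98 over 4 dates. Of the 4 genes that passed the filter, *Aldoc*, *Glul*, *Apoe* and *Clu*, 0 were past 2-fold either way, beside 23.6% of the 6402 genes that were higher in S1 and 10% that were lower. *Slc1a3* had a mean of 1.76 in S1 L5 and 0 in V1 L5, from 5 of 16 cells against 0 of 17 (SD over dates 2.49), so no date could give a difference below 0. It did not pass the filter, and the difference was 0.83 without date 6. *Slc1a2* stood 1.03 higher in S1 (SD 3.13), also below the filter, and 0.16 higher without date 6.

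Between the layers, compared among cells of the first date series, the summed genes in V1 had means of 9.49 in L5 and 9.91 in L4, a difference of -0.42. The 2 dates with enough cells gave -1.61 and 0.40. Of the L4 cells, 11 came from date 2, which had no L5 cells. Their mean of 9.08 was the lowest of the V1 L4 dates in this series, so leaving them out moves the difference further below 0. All 5 genes that passed the count filter had lower means in L5, as did 44.95% of the 6696 genes in the comparison. *Aqp4*, *Slc1a3* and *Gfap* were at 0 in every L5 cell of V1 and could not be higher there. *Slc1a2* was the furthest apart at 2.01 in L5 and 3.91 in L4 (difference -1.90, SD over the 2 dates 3.0). Of the 5 genes that passed the filter, 1 was lower by 2-fold or more and 0 higher, beside 15.6% and 22.3% of 6696 genes. *Apoe* was at 5.58 in L5 and 6.34 in L4, a difference of -0.76 that became -2.72 without date 2.

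In S1 the summed genes had means of 9.82 in L5 and 9.97 in L4. The difference of -0.15 became 0.11 without date 3. As the mean within 3 dates the difference was -0.53, and it was below 0 on 3 of 3 (SD 0.24). *Aldoc* had means of 3.50 in L5 and 5.70 in L4, a difference of -2.20, below 0 on 3 of 3 dates (-6.33 to -0.51, SD 3.30), and it was -0.88 without date 3. Of the 4 genes that passed the filter, *Aldoc* was the 1 lower by 2-fold or more and 0 were higher, beside 9.8% and 23.3% of 6492 genes. *Glul* differed by 0.07 and *Clu* by -0.63, each less than its SD over dates.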

How the data were processed

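The authors aligned the reads to mm10 with STAR 2.4.2a after bcl2fastq 2.20 and deposited read counts per gene, without normalization, for 118 cells. The authors also deposited RPKM values, computed from RefSeq gene models, which were used to compare levels between genes. Entries of 1 symbol were summed (24490 entries, 23998 symbols). How reads that match several genes, such as *Aldoc* and *Aldoa*, were counted is not given in the sources used here.

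Groups came from the region and layer in the labels, and cells were numbered in accession order. Left out were 9 cells: 4 with few genes, 1 with more *Slc17a7* than *Gad1* and *Gad2* counts, and 4 without an *Sst* count. Values are log2(CPM + 1), with CPM from all counts of a cell. Differences are between means over cells, and within dates with at least 2 cells of each group. A comparison across genes took those that reach 32 counts in 10 or more of its cells, and called means a 2-fold difference. Intervals are 95% Clopper-Pearson for shares and exact Poisson for pooled counts, and a count of 0 allows up to 3. Thinning drew 250000 counts per cell (seed 1), without the 3 shallower cells. The named genes are the 9 members and, for each one read in at least 10 cells, the 3 with the highest Pearson r. The members and lists were chosen with earlier results of these data known. The difference function was tested on simulated counts. Alternatives included edgeR 4.0.16 TMM scaling, other pseudocounts, filters and thresholds, RPKM, and leaving out dates or the highest cells. The tools were R 4.3.3, SciPy 1.17.1, pandas 2.3.3, NumPy 2.4.6 and Python 3.11.15. Values of some genes of the lists are not reported here.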

Additional observations from a re-analysis of the deposited data

Results flagged for a closer look

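Astrocyte genes were also read in 8 of the 9 cells left out of every comparison. The 4 S1 L4 cells without an *Sst* count had the 9 genes at 2035 (cell 11), 907 (cell 4), 808 (cell 18) and 522 CPM (cell 13), with *Aldoc* at 545, 640, 3.26 and 294 CPM. V1 L5 cell 12, with more *Slc17a7* than *Gad1* and *Gad2* counts, had 450 CPM, of which *Slc1a2* was 379 CPM and *Clu* 2.63 CPM. Of the cells with few detected genes, V1 L4 cell 5 had 4073 CPM, with 385 *Aldoc* counts among 99195 counts in all, V1 L4 cell 16 had 469 CPM, with *Aldoc* at 465.5 CPM, and V1 L5 cell 14 had 4354 CPM from 6 counts among 1378. S1 L4 cell 27 had 0 counts of the 9 genes among 580.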

How the results depend on the processing

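No difference past 2-fold between log2 values changed sign under an alternative, but some fell below 2-fold. The direction of *Aldoc* between areas in L4 did depend on the summary used. Its pooled level was higher in V1 (289 CPM) than in S1 (243 CPM), as was its mean RPKM (239 and 170). *Aldoc* between areas in L4 was 0.66 with log2(CPM + 10), 0.76 between medians and 0.64 without date 2, and between layers in S1 it was -0.88 without date 3. With log2(CPM + 10), *Slc1a2* and *Slc1a3* between areas in L5 were 0.43 and 0.93, and 0.16 and 0.83 without date 6. Of the recomputed differences 501 moved by less than the spread used to judge them and 19 by more. With a gene called read only at 32 counts or more, the mean number of genes per cell was 3.38 in V1 L4 and 3.19 in S1 L5. The S1 difference between layers in the summed genes was -0.15 between means over cells and -0.53 as the mean within dates. Between means over cells, it ranged from -0.45 (without date 2) to 0.11 (without date 3) when dates were left out in turn. *Apoe* in V1, L5 against L4, was -2.72 without date 2. Without a filter other than 1 count, the shares of all genes past 2-fold fell to 4.55% higher and 4.35% lower between areas in L4. Cells could not be paired by animal, which the labels do not name, and were compared within dates instead. At 250000 counts *Gja1* was read in 9 cells in place of 15 and *Aqp4* in 6 in place of 7, while *Slc1a3* stayed at 16 and *Gfap* at 5. The mean RPKM without V1 L4 cell 22 was an alternative chosen after seeing the data.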
